A study of Mus musculus with 2 samples.

Results

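Mir191 and Mir425 are neighbouring microRNA genes on mouse chromosome 9 that are known as a pair processed from one primary transcript. They were taken by name from GENCODE M21 and matched to the deposited counts by Ensembl identifier, so they are 2 of the 2202 microRNA genes counted. The tissue was the adrenal gland, from males of the strain B6CASTF1/J (the F1 hybrid of C57BL/6J and CAST/EiJ) at 36 days of age. One small RNA library came from each of 2 animals, and these form a single group with no treatment and no second genotype. The labels number the animals separately and give 1 donor record for both, so every test between the libraries compares these 2 libraries only. Whether CAST/EiJ alleles alter the mapping of reads at this locus was not tested.

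A microRNA gene is transcribed as a long primary RNA, from which Drosha cuts a hairpin and Dicer a short duplex. One strand of the duplex, the mature arm, guides Argonaute to messenger RNAs through its seed, the bases near its 5′ end. Neighbouring hairpins of one primary RNA can end at different mature levels because cutting, arm selection and decay act on each hairpin separately. miR-191 is abundant in many mouse and human tissues and is often used as an internal reference in PCR assays of microRNAs. miR-425 is known in human for a target site in the messenger RNA of NPPA, the precursor of atrial natriuretic peptide, a hormone that restrains aldosterone release from the adrenal cortex. DALRD3, the protein after which the host is named, takes part in methylation of arginine transfer RNAs in human cells.

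The mature arms of both genes are shown because they set which messages each microRNA can pair with. They are RefSeq sequences on GRCm38.p6, 5′ to 3′, with the seed (bases 2 to 8) in capitals.
mmu-miR-191-5p: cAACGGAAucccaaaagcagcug
mmu-miR-191-3p: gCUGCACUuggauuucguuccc
mmu-miR-425-5p: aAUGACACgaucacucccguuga
mmu-miR-425-3p: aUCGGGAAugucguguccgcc
No seed was shared between Mir191 and Mir425. Among the 1738 mature sequences of the RefSeq table, only the seed of miR-425-5p occurred in another microRNA, miR-489-3p, and Mir489 had 0 counts in both libraries. No other hairpin of that table held any of the 4 arms, also with up to 2 mismatches allowed. The rest of the genome was not searched for copies of the arms.

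The hairpins are shown with their mature arms in capitals, since the deposited counts refer to the whole hairpin gene and do not separate its arms. Mir191 (ENSMUSG00000105497.1) lies at chr9:108568319-108568392 on the plus strand and Mir425 (ENSMUSG00000065579.1) at chr9:108568777-108568861 on the same strand, 384 bases further 3′.
Mir191: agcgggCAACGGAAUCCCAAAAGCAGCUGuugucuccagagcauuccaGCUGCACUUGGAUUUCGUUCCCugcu
Mir425: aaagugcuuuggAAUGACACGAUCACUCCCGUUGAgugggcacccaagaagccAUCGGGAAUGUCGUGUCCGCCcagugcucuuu
The hairpins were alike in base composition, at 54.1% GC each (54.05% in Mir191 and 54.12% in Mir425). Mir191 had the lower predicted folding energy, -35.0 kcal/mol over 74 bases, against -31.7 kcal/mol over 85 bases in Mir425. Per base, 22.3% of 1005 RefSeq hairpins folded with a lower energy than Mir191 and 64.3% with a lower energy than Mir425. These are properties of the printed reference sequences, and their part in the levels was not tested.

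The annotation used for counting does not place the pair inside Dalrd3. In GENCODE M21, Dalrd3 begins 1024 bases beyond the 3′ end of Mir425. Both hairpins lie instead within 4833445I07Rik, a long noncoding RNA gene at chr9:108567533-108569174 on the plus strand. Its single-exon transcript, of 1642 bases, holds both hairpins. Its spliced transcript holds Mir191 in its only intron and ends 2 bases before Mir425 begins. RefSeq, in contrast, extends Dalrd3 from 108567484 to 108572773, a span that covers both hairpins, with its start 835 bases before Mir191. The single RefSeq promoter window of Dalrd3 begins 780 bases after Mir425. The RefSeq extent of Dalrd3 thus includes the pair and the GENCODE M21 gene model does not, and the primary transcript itself was not measured.

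**Figure D1:**
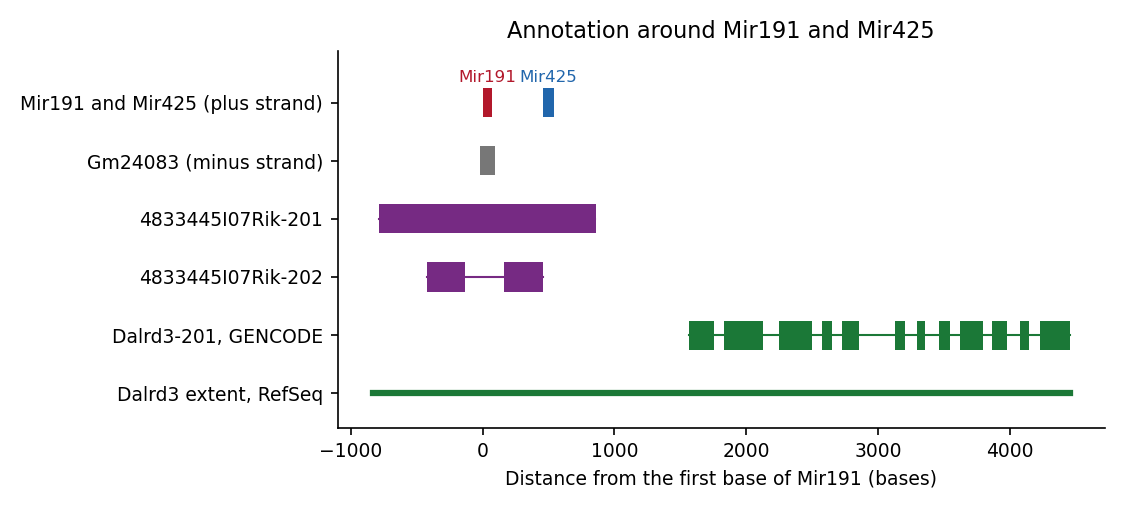
Annotated features around the pair, by distance in bases from the first base of Mir191, with boxes for exons and thin lines for introns. Both hairpins fall within the single-exon transcript of 4833445I07Rik and within the RefSeq extent of Dalrd3 (thick line), while the GENCODE model of Dalrd3 begins 1024 bases after Mir425.

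GENCODE M21 also annotates a microRNA gene, Gm24083, on the opposite strand of Mir191. Gm24083 (chr9:108568295-108568414, minus strand) is given here because it hides Mir191 in part of the deposited data, with the bases complementary to the Mir191 hairpin in capitals, as DNA letters of the GENCODE transcript. It covers the hairpin whole, with 24 bases to spare on the low-coordinate side and 22 on the other.
Gm24083: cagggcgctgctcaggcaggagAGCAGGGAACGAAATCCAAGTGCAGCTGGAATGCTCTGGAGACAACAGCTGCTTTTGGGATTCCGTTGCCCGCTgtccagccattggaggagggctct
On the sense strand Gm24083 had 0 counts in both libraries, which allows up to 3 counts, or 0.667 CPM in replicate 1 and 1.44 CPM in replicate 2 (CPM, counts per 1000000 gene counts). Mir191 and Mir425 likewise had 0 counts on the strand opposite to their own. All reads assigned at Mir191 thus came from the plus strand.

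Mir191 was visible only when strand was taken into account. In the deposited column that ignores strand, Mir191 had 0 counts in both libraries. That column also lists reads that could belong to more than 1 gene as ambiguous, and the sense counts of Mir191 equalled 4.16% of these in replicate 1 and 2.94% in replicate 2. Mir425 had identical counts in the strand-blind and the sense column. In all, 25 genes that reached 10 sense counts in each library had 0 strand-blind counts, and each of them has a microRNA gene on its other strand. Mir191 was the fifth of these 25 by level, after Mir378a, Mirlet7e, Mir451a and Mir30e. All further values are from the sense column.

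Mir191 was an abundant microRNA of the gland and Mir425 a moderately abundant one. Replicate 1 held 4494857 gene counts and replicate 2 held 2078824, or 36.6% and 20.1% of all reads. Of 2202 genes, 749 had a count in either library and 87 had a mean above 1000 CPM, both members among them.

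Mir191 had 33117 counts in replicate 1 and 11856 in replicate 2. Scaled to the gene counts, replicate 1 stood at 7368 CPM and replicate 2 at 5703 CPM, with Clopper-Pearson 95% intervals of 7289 to 7447 CPM and 5601 to 5807 CPM. The mean was 6535 ± 1177 CPM (SD, n = 2). Mir191 therefore took 0.654% ± 0.118 of all gene counts and stood at rank 28 in replicate 1 and rank 31 in replicate 2. Its level was higher in replicate 1, by 1.29-fold before further scaling.

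Mir425 had 4403 counts in replicate 1 and 2934 in replicate 2. Its level was 980 CPM in replicate 1 (951 to 1009) and 1411 CPM in replicate 2 (1361 to 1463). The mean was 1195 ± 305 CPM (SD, n = 2), or 0.120% ± 0.0305 of the gene counts. Mir425 stood at rank 85 in replicate 1 and rank 71 in replicate 2, and was higher in replicate 2 by 1.44-fold before further scaling. Such intervals hold counting error alone, because they have no term for the spread between libraries. They also take copies made by PCR as separate molecules, and they are far narrower than the gap between the libraries.

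The libraries do not fix the place of either gene among its neighbours in level. Around Mir191, Mir99b (6878 ± 1619 CPM), Mir29a (6867 ± 2520 CPM), Mir151 (6501 ± 2029 CPM) and Mir744 (6454 ± 562 CPM) lay within the SD of Mir191. Around Mir425, Mir708 (1273 ± 573 CPM), Mir181c (1236 ± 166 CPM), Mir15b (1148 ± 482 CPM) and Mir181d (1128 ± 295 CPM) lay within the SD of Mir425. Those with the next ranks in level are named for their position only.

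The members of the pair were far apart in level in both animals. Mir191 made up 88.3% of the 37520 counts of the pair in replicate 1 (95% interval 87.9 to 88.6) and 80.2% of the 14790 counts in replicate 2 (79.5 to 80.8). The count of Mir191 was 7.52 times that of Mir425 in replicate 1 (7.29 to 7.76) and 4.04 times in replicate 2 (3.88 to 4.21). On the log2 scale the ratio was 2.91 and 2.01, a mean of 2.46 ± 0.63 (SD, n = 2), and the levels of Mir191 and Mir425 did not overlap over the libraries. Per base of hairpin the ratio was 8.64 in replicate 1 and 4.64 in replicate 2, a change by a constant factor that the hairpin lengths set. Paired within the libraries, an exact two-sided sign-flip test of 2 log2 ratios cannot go below p = 0.5, and an unpaired exact permutation test of 2 values with 2 cannot go below 0.33, so no test over animals was made. The ratio is one of counts, and adapter ligation can favour one sequence over another, which was not tested.

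**Figure D2:**
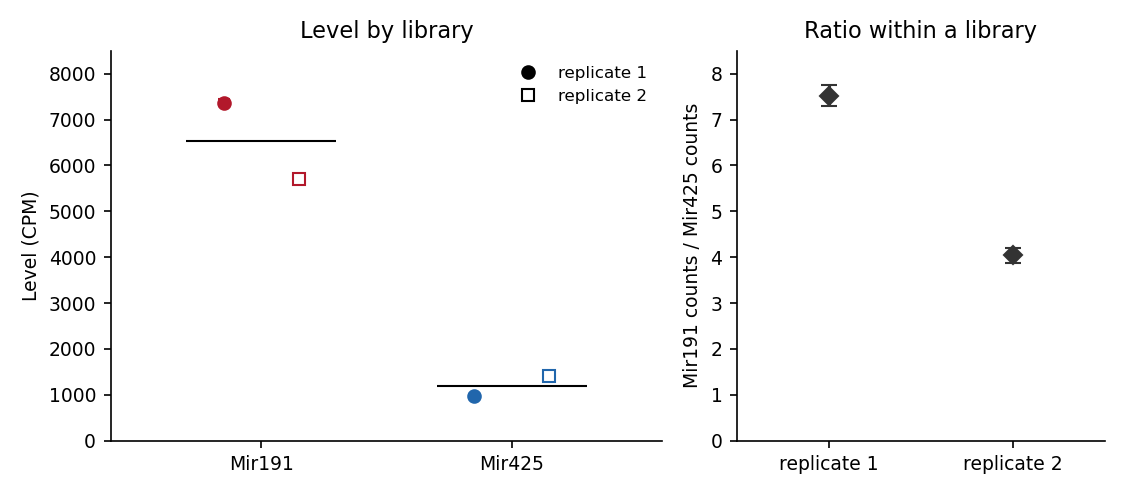
Left, the level of Mir191 and Mir425 in CPM in each library, with the mean as a line and exact 95% counting intervals that are mostly hidden by the symbols. Right, the ratio of Mir191 to Mir425 counts within each library with its 95% counting interval, 7.52 in replicate 1 and 4.04 in replicate 2.

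Unequal counts of neighbouring hairpins were common in the gland, and the ratio of Mir191 to Mir425 was near the middle. Neighbours were consecutive microRNA genes on one strand with at most 10 kb between them and at least 10 counts of both in both libraries, which gave 87 pairs from 130 genes, 37 of the pairs on chromosome 12. The median absolute log2 ratio within a pair was 2.23, or 4.69-fold, and Mir191 with Mir425 was the 40th largest at 2.46. Next above it were Mir541 and Mir409 of the imprinted chromosome 12 region, where Mir541 had 4.49 times the counts of Mir409 in replicate 1 and 6.90 times in replicate 2. Next below it were Mir376b and Mir376a of the same region, where Mir376b had 0.199 times the counts of Mir376a in replicate 1 and 0.174 times in replicate 2. Neighbouring pairs share genes where clusters are longer than a pair, so they are not independent of each other. Reads at several places are not in the counts, so the ratios of pairs with a numbered copy, such as Mir27b with Mir24-1, are uncertain. How far this moved the median or the place of Mir191 and Mir425 in these orders was not tested.

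The balance between Mir191 and Mir425 differed between the libraries. The log2 ratio of Mir191 to Mir425 was higher in replicate 1 than in replicate 2 by 0.90 (Wald 95% interval 0.82 to 0.97), a 1.86-fold change of ratio. By Fisher's exact test of the 4 counts, a test that no library scaling can alter, the adjusted p was 7.54e-120 (two-sided, Benjamini-Hochberg over the 87 pairs). That call is common here, because the test takes counting noise as its only error. Of the 87 neighbouring pairs, 71 (81.6%) passed it. The median absolute difference was 0.70 and that of Mir191 and Mir425 was the 32nd largest, between Mirlet7c-2 with Mirlet7b at 0.91 and Mir673 with Mir493 at -0.88, pairs that were named for their position in that order after their values were seen.

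**Figure D3:**
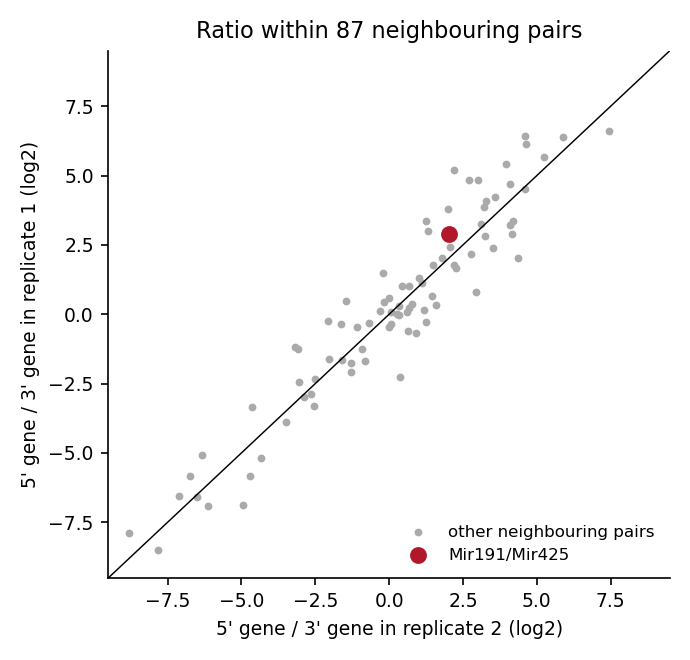
Log2 ratio of the 5′ gene to the 3′ gene within each of 87 neighbouring pairs, in replicate 1 (vertical) against replicate 2 (horizontal), with the line of equal ratios. Mir191/Mir425 lies above the line, at 2.91 in replicate 1 and 2.01 in replicate 2, within the cloud of other pairs.

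Scaled to gene counts, Mir191 and Mir425 differed beyond counting error in opposite directions between these 2 libraries. The direction of Mir425 depends on that denominator. Out of all reads, Mir425 had 4403 of 12289288 in replicate 1 and 2934 of 10323816 in replicate 2. That is a larger share in replicate 1, as for Mir191. TMM-scaled levels in replicate 1 were divided by those in replicate 2 and put on the log2 scale, for the 333 genes that reached 10 counts in each library. Mir191 was higher in replicate 1, with a log2 ratio of 0.55 (counting interval 0.52 to 0.59, exact binomial test, Benjamini-Hochberg adjusted p = 5.81e-298). Mir425 was lower in replicate 1, with a log2 ratio of -0.34 (-0.41 to -0.27, exact binomial test, adjusted p = 1.74e-22). Such calls were frequent among all genes. The binomial test called 78.1% of the 333 genes, 38.7% as higher in replicate 1 and 39.3% as higher in replicate 2, so a call of both members is a common outcome, and nothing particular to them is read from it. Beside TMM, library size alone gave 0.37 for Mir191 and -0.53 for Mir425, a shift of 0.19 for every gene, and DESeq2 median-ratio scaling gave 0.56 and -0.34.

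The difference of each member was below the median of all genes in size. The absolute log2 ratio was smaller than that of Mir191 in 42.9% of the 333 genes and smaller than that of Mir425 in 23.1%, with a median of 0.62 over all genes. Among the 87 genes above 1000 CPM the median was 0.69, and 35 had a smaller ratio than Mir191 and 21 a smaller one than Mir425. The edgeR exact test used a common dispersion taken from the pair of libraries itself, a biological coefficient of variation of 52.7%. With it, neither member was called (adjusted p = 0.988 for both). The differences under test also set that dispersion, so nothing is read from the lack of a call, here or for the lists below. The edgeR exact test called 2 of the 333 genes (0.601%) and 17 at an unadjusted p under 0.05.

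The opposite directions of Mir191 and Mir425 had counterparts in other neighbouring pairs. Both genes were called in opposite directions in 23 of the 87 pairs (26.4%) with TMM scaling, Mir191 and Mir425 among them. With library size alone there were 28 such pairs and with DESeq2 median-ratio scaling 24, and Mir191 and Mir425 were among them each time. All of these scalings rest on gene counts, and out of all reads both members had a larger share in replicate 1. The summed level of Mir191 and Mir425 was 8347 CPM in replicate 1 and 7115 CPM in replicate 2, a mean of 7731 ± 872 CPM (SD, n = 2). Before TMM scaling, the sum differed 1.17-fold between the libraries, against 1.29-fold for Mir191 and 1.44-fold for Mir425 alone. The order of these folds depends on the scaling. With TMM, Mir191 had 7856 CPM in replicate 1 and 5349 CPM in replicate 2, and Mir425 had 1045 and 1324 CPM. On that scale the sum differed by a larger fold than Mir425 alone, so the sum is not read as steadier than its members.

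**Figure D4:**
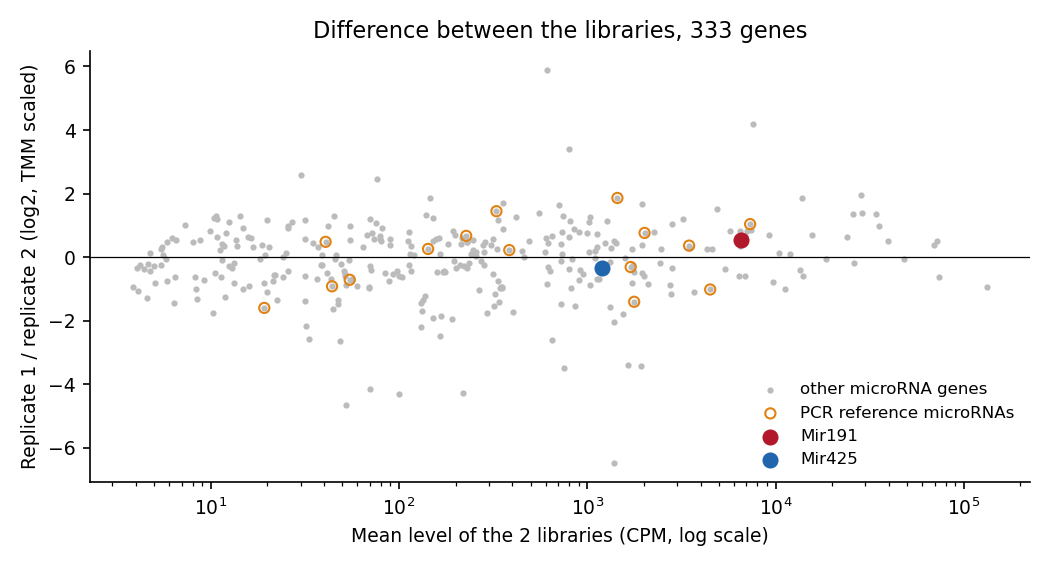
Log2 ratio of replicate 1 over replicate 2 after TMM scaling against the mean CPM (log axis) for 333 genes, with microRNAs used as PCR references circled. Mir191 lies at 0.55 and Mir425 at -0.34, on either side of the line of no difference.

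Some marker microRNAs of other cells also differed between the libraries. Erythroid genes (3 of 5 listed markers were found, none at 0) took 1.58% of the gene counts in replicate 1 and 0.109% in replicate 2. Mir451a and Mir144 made up this difference, and Mir486 had 38.7 and 35.1 CPM. The 5 miR-200 genes of epithelium, none at 0, took 0.00647% and 0.358%, and the 3 acinar genes of the pancreas had 0 counts in replicate 1 and 677 in replicate 2. The 5 leukocyte genes, all above 0, took 0.322% and 0.390%. They did not share a direction, since Mir146 and Mir150 were higher in replicate 2 and Mir142, Mir155 and Mir223 in replicate 1. The endothelial gene Mir126a took 7.48% and 6.48%, the 4 neuroendocrine genes 4.88% and 5.42%, the 2 smooth muscle genes 4.66% and 3.02%, and the hepatocyte gene Mir122 0.138% and 0.284%. The neuroendocrine and smooth muscle sums hide opposite directions. Mir375 had 44147 CPM in replicate 1 and 51780 CPM in replicate 2, while Mir7b had 4326 and 2129 CPM. Mir7-1 and Mir7-2 were also lower in replicate 2. Mir143 had 45047.5 and 26223.5 CPM, while Mir145a had 1564 and 3998 CPM. The 5 striated muscle genes had 5 counts in replicate 1 and 11 in replicate 2 in all, with every copy of Mir1a and Mir133a at 0, and the 6 neuronal genes had 3 and 0 counts, with every copy of Mir124a at 0. Multimapping reads of such copies are not in the counts. In whole tissue, fewer cells of a type and less RNA per cell cannot be told apart, and the part of these cells in the ratios of Mir191 and Mir425 was not tested.

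MicroRNAs that serve as PCR references alongside miR-191 were called in both directions. Of the 16 listed, 15 were tested, and the binomial test called 9 as higher in replicate 1 and 6 as higher in replicate 2 (with library size alone 6 and 6, and 3 not called). Over all 333 genes these shares were 38.7% and 39.3%, and the edgeR exact test called 0 of the 15, also at an unadjusted p under 0.05. Their median log2 ratio was 0.26 (0.07 with library size alone), against -0.01 over all genes, and their median absolute ratio was 0.76. The 4 highest were Mir30e at 9438 CPM in replicate 1 and 5217 CPM in replicate 2, Mir320 at 2725 and 6268 CPM, Mir93 at 3689 and 3259 CPM and Mir361 at 2414 and 1616 CPM. Of the 15, 5 had a smaller absolute log2 ratio than Mir191 and 3 a smaller one than Mir425. The numbered copies of Mir103, Mir16, Mir24 and Mir26a share sequence with other loci, so their counts are uncertain.

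MicroRNAs listed for protein-coding hosts were also called in both directions. Of 22 listed, 21 were tested, and 15 were called as higher in replicate 1 and 6 as higher in replicate 2 (11 and 6 with library size alone, and 4 not called), with a median log2 ratio of 0.39 (0.21 with library size alone). The shares of 38.7% and 39.3% over all genes are the background for these counts, no test of the list was made, and the edgeR exact test called 0 of the 21, also at an unadjusted p under 0.05. The 4 highest were Mir378a in Ppargc1b at 53937 CPM in replicate 1 and 94373 CPM in replicate 2, Mir126a in Egfl7 at 74830 and 64786 CPM, Mir26b in Ctdsp1 at 43835 and 12870 CPM, and Mir23b at 35488 and 15877 CPM. GENCODE M21 places 19 of the 22 inside the listed host on the same strand, and Mir23b, Mir27b and Mir24-1 are the exceptions. The list shares members with that of the PCR references, Mir30e and Mir93 among them. Mir16-2, Mir24-1 and Mir103-1 are on both lists too, and their counts are uncertain here for the same reason.

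The genes with levels most like those of Mir191 and Mir425 in both libraries were different for each member. Likeness was the distance between log2 TMM-scaled CPM (pseudocount 1) over the 2 libraries, among 333 genes, and says nothing beyond these 2 libraries. Nearest to Mir191 were Mir99b at a distance of 0.12, Mir744 at 0.14, Mir151 at 0.20, Mir411 at 0.23 and Mir379 at 0.31. Mir99b had 8023 CPM in replicate 1 and 5734 CPM in replicate 2, close to Mir191 in both. Nearest to Mir425 were Mir134 at 0.25, Mir214 at 0.27, Mir15b at 0.29, Mir149 at 0.31 and Mir1839 at 0.41. Mir134 had 1018 CPM in replicate 1 and 1188 CPM in replicate 2. None of these 10 genes lies on chromosome 9. Mir191 and Mir425 were 3.54 apart from each other, so sets this close to each member could not share a gene.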

How the data were processed

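The data are microRNA sequencing libraries from total RNA, 1 from each of 2 animals of one group. Raw counts of reads per microRNA gene were deposited, in a column without regard to strand and in 1 column per strand. Assembly mm10 and annotation M21 are named in the deposited text. Which aligner and counter were run is not given in the sources used here. Rows that name no gene were left out of library sizes: unmapped reads were 26.4% and 51.9% of replicates 1 and 2, reads at several places 29.8% and 21.5%, and reads outside genes 7.16% and 6.46%. CPM was computed over all gene rows of the sense column. TMM factors (0.938 for replicate 1 and 1.07 for replicate 2) and the exact test came from edgeR 4.0.16 and size factors from DESeq2 1.42.0, in R 4.3.3. Exact binomial and Fisher tests across all genes or pairs used SciPy 1.17.1 in Python 3.11.15, with Benjamini-Hochberg adjustment and a threshold of 0.05. They were tried on simulated data that held counting noise only, without TMM scaling. That trial does not cover the wider spread between the real libraries. Other denominators, scalings, count minimums, neighbour distances, the strand-blind column and single libraries were tried as alternatives. Hairpins were folded with ViennaRNA 2.7.2. RefSeq sequences (GRCm38.p6) matched both members by symbol, and 968 of the 2202 counted genes. The members, lists and tests were chosen with earlier results of these data known. Genes named are the members, the 5 most alike, those sharing a seed, neighbouring pairs next in order, and the 4 highest of each list; Mir29a, Mir708, Mir181c, Mir181d, Mir673, Mir493, Mirlet7c-2 and Mirlet7b were named after their values were seen.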

Additional observations from a re-analysis of the deposited data

Results flagged for a closer look

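Gm24083, the microRNA gene annotated opposite to Mir191, had 33117 counts in replicate 1 and 11856 in replicate 2 in the opposite-strand column. No comparison uses that column. These lie above the 3 counts that a count of 0 allows. Each equals the sense count of Mir191 in the same library. Gm24083 covers that hairpin whole from the minus strand, so these are the plus-strand reads of Mir191. The comparisons use them as the sense counts of Mir191.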

How the results depend on the processing

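Of 43 alternative values, 37 kept their direction and their side of the threshold, or moved by less than 1 SD (counts of calls by less than 1.5 times). Part of these outcomes was fixed in advance, so the count is not a measure of robustness. Leaving out 1 of 2 libraries always moves a mean by less than 1 SD. Neighbour distances and count minimums cannot alter the difference of the log2 ratio of Mir191 to Mir425 between the libraries. With all reads in place of gene counts as the denominator, Mir191 stood at 1922 and Mir425 at 321 counts per 1000000 reads. On that denominator both members were higher in replicate 1, so Mir425 changed direction. In the strand-blind column Mir191 was at 0 CPM, so its ratios could not be computed there. With the edgeR exact test the log2 ratios of Mir191 (0.55) and Mir425 (-0.34) between the libraries were no longer past the threshold, and the number of genes called was 2 in place of 260. Over the scalings and count minimums of the binomial test, the log2 ratio ran from 0.37 to 0.72 for Mir191 and from -0.53 to -0.17 for Mir425, with library size alone giving the lower end and no count minimum the upper end of each range. Counts per base of hairpin, an alternative chosen after seeing the data, gave a mean log2 ratio of Mir191 to Mir425 of 2.66. That shift was fixed in advance by the hairpin lengths. Leaving out a library gave a mean of 5703 to 7368 CPM for Mir191 and 980 to 1411 CPM for Mir425 and a log2 ratio of 2.01 to 2.91, and no difference between libraries could be computed. No paired analysis was possible because the labels define a single group, which concerns pairing of groups only. Mir191 and Mir425 were compared within each library. Depth limits little here, since the rarest value, Mir425 in replicate 2, rests on 2934 counts.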
